A study of Danio rerio and Garra andruzzii with 24 samples.

Results

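The genes described here encode actins and proteins that bind actin filaments, and 10 names were looked up exactly as written: actb1, actb2, acta1a, acta2, tagln, tagln2, cnn2, vcla, tpm1 and tpm4a. The zebrafish genome table of 35886 genes holds 9 of these names in 10 rows, of which 8 passed the filter on low counts and were tested. In tables assembled without a genome, the UniProt names ACTB, TAGL, TAGL2, CNN2, VINC and TPM1 were looked up, of which 6 of 6 occur in zebrafish cells and 5 of 6 in cavefish cells. The genes were selected on their levels and differences in these same libraries, as earlier results had given them, so that all their values here are a description and carry no p-value. PAC-2 cells, a line from zebrafish embryos, and EPA cells, a line from embryos of the blind Somalian cavefish P. andruzzii (labelled Garra andruzzii), were kept in darkness for 2 days and then given blue light of 468 nm. Samples were taken at 0 h, which is the dark (DD) control, and after 1, 3 and 6 h of light, with 3 libraries of each line and time and 24 in all. Both lines are labelled fibroblasts and grow in L-15 medium with 15% (PAC-2) or 20% (EPA) fetal bovine serum. The files analysed here hold dark libraries for 0 h only, and the effect of light and that of time in culture cannot be told apart. Whether the triplicates of a group came from separate cultures is not stated in the labels or the methods.

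Actin monomers assemble into filaments that give a fibroblast its shape and let it pull on its surroundings. Tropomyosins lie along these filaments, calponins and transgelins bundle or stabilise them, and vinculin joins them to integrins at focal adhesions. Transcription of many of these genes is controlled by serum response factor (SRF) and its MRTF coactivators, which sense how much actin is left unassembled. β-actin mRNA is also the common reference of RT-qPCR, and it served as such in the study these libraries come from.

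Total counts of a library lay between 20037859 and 32521127 where PAC-2 reads were mapped to the genome. They lay between 25642113 and 41784013 in the PAC-2 assembly and between 28222058 and 40053884 in the EPA assembly. Normalized counts are counts scaled with the TMM factors of edgeR to the mean library size. Levels of different genes are compared in TPM, computed here from the counts and the gene lengths in the file, and all other levels are normalized counts. Fibroblast genes were expressed in PAC-2 cells: of 28 listed rows, 18 lay above 10 TPM at 0 h, with col1a2 at 461 ± 31.1 TPM (SD, n = 3). Others of this list were low, among them dcn at 0.659, vim at 0.630, thy1 at 0.0186 and tcf21 at 0 TPM. Skeletal and cardiac muscle genes had 0 of 41 rows above 10 TPM, and the lists of neural genes and of blood and immune genes had none either. Of the epidermis list 3 of 16 rows and of the mural cell list 5 of 14 rows lay above 10 TPM, among them krt8 at 1000.3 ± 72.6 and rgs5b at 231 ± 9.12 TPM. The summed TPM of the endothelium list was 19.9 to 27.3 at 0 h and 35.5 to 42.4 at 6 h, with kdr as the sole row of 13 above 10 TPM and cdh5, fli1a, erg and plvapb at 0 or 1 count in every library. The summed TPM of the blood and immune list was 9.42 to 11.5 at 0 h and 14.5 to 16.0 at 6 h, carried by itgb2, while mpeg1.1, coro1a, gata1a and lyz had 0 counts throughout. The part of these changes in the results below was not tested.

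Cytoplasmic actin dominated the set in the dark. actb2, a cytoplasmic β-actin gene at chromosome 3, 40526107 to 40529804 (build GRCz11, minus strand), stood at 6063 ± 154 TPM in the DD control (SD, n = 3). tagln, which encodes the actin-bundling protein transgelin, came next with 1798 ± 42.9 TPM, and actb1, the other cytoplasmic β-actin gene, with 1717 ± 33.3 TPM. The 0 h libraries of tagln (1768, 1780 and 1847 TPM) were all above those of actb1 (1756, 1700.2 and 1696 TPM), by little at the nearest pair. cnn2, a calponin of non-muscle cells, had 543 ± 32.0 TPM and tagln2, a transgelin of many cell types, 444 ± 6.09 TPM. acta1a, an α-actin gene of the skeletal muscle type, had 60.8 ± 2.01 TPM. tpm4a, a tropomyosin, had 34.2 ± 3.23 TPM and did not differ beyond its spread from vcla on chromosome 12, a vinculin gene with 31.4 ± 5.23 TPM. Together actb1 and actb2 took 0.748% to 1.01% of all counts in a library. The plot of TPM levels shows this order.

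**Figure D1:**
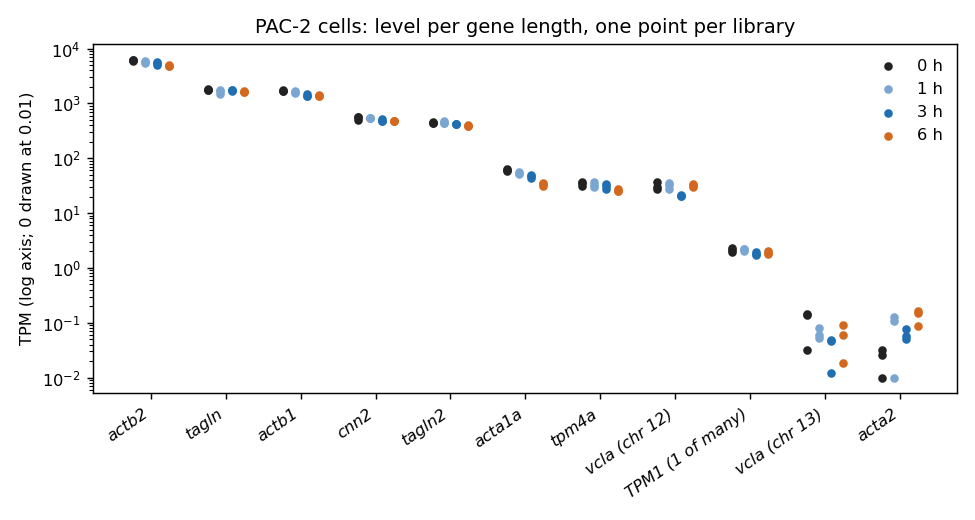
Level of each gene in TPM on a log axis in PAC-2 cells, with 1 point per library and the 4 times side by side (n = 3 per time). The genes fall from actb2 at about 6063 TPM at 0 h to acta2 at 0.0195 TPM, a value drawn at 0.01 where no read was counted.

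The name smooth-muscle type is not borne out by its defining actin. acta2, the actin of vascular smooth muscle, had 1, 1 and 0 raw counts in the 0 h libraries, 0, 6 and 5 at 1 h, 3, 3 and 2 at 3 h and 7, 5 and 3 at 6 h. These are 2 counts in all at 0 h and 15 at 6 h, too few for the filter, and no fold is given. Some other genes that mark smooth muscle were also low: myh11a, the smooth muscle myosin heavy chain, had 6 to 16 counts per library, myh11b 14 to 40, desma 0 to 6 and smtna 0. Some of the list were higher, with 162 to 309 counts per library (3.48 TPM at 0 h) for smtnb, 121 to 326 (5.53 TPM) for lmod1b and 70 to 145 (2.01 TPM) for mylka. Above these in TPM was ppp1r14aa, with 154 to 345 counts per library and 17.2 TPM at 0 h. Of the set itself, tagln was abundant, at 1798 TPM at 0 h. Genes of contraction that non-muscle cells share were abundant, such as myl9b, a myosin regulatory light chain, at 1114 ± 39.1 TPM and myh9b, a non-muscle myosin heavy chain, at 336 ± 34.4 TPM. In all, 11 of 29 rows of the smooth muscle contractile list lay above 10 TPM at 0 h, and the list's summed TPM was 2733 to 2939 at 0 h and 2783 to 2852 at 6 h.

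Some names needed care. The name vcla stands on 2 rows of the table, ENSDARG00000098695 at chromosome 12, 46791907 to 46835940, which was tested, and ENSDARG00000044968 at chromosome 13, 25211939 to 25284716, which had 1 to 7 counts per library and was not. Both identifiers are paired with the same human-style symbol, VCL, in the reference table of gene names. The identifiers of tagln and tagln2 are likewise both paired with TAGLN there. tpm1 has no row of exactly that name. A row named "TPM1 (1 of many)" at chromosome 25, 33192404 to 33250323, whose identifier the reference table pairs with tpm1, is given apart from the set. Reads of actb1, actb2, acta1a and acta2 come from closely related coding sequences, and how shared reads were counted is not stated, which leaves the split among them uncertain.

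After 6 h of blue light, 7 of the 8 tested genes stood below the dark control in every library. The share of all genes with such a separation was not computed, so nothing is read from this count. The median log2 difference of the 8 genes at 6 h was -0.34, beside 0.002 over all 18017 genes tested. At an adjusted p of 0.05 in edgeR's quasi-likelihood fit over all genes, 7 of 8 were called lower and 0 higher, where 14.9% of all genes tested were called lower and 14.1% higher, and nothing is read from this count because the genes were chosen with it known. The study's own thresholds were a change of 1 or more on the log2 scale, up or down, together with an adjusted p under 0.001. None of the 8 genes passed them at 1, 3 or 6 h (0 calls). Of all genes, 0.0222% passed as higher and 0% as lower at 1 h, 0.705% and 0.0278% at 3 h, and 1.47% and 0.0722% at 6 h. At 1 h, 0 of 8 were called, with 0.155% of all genes called higher and 0.0167% lower. At 3 h, tagln2 was called higher and vcla lower, with 11.3% of all genes called higher and 10.1% lower. Fewer actin-rich cells and less actin mRNA per cell cannot be told apart in these bulk libraries.

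**Figure D2:**
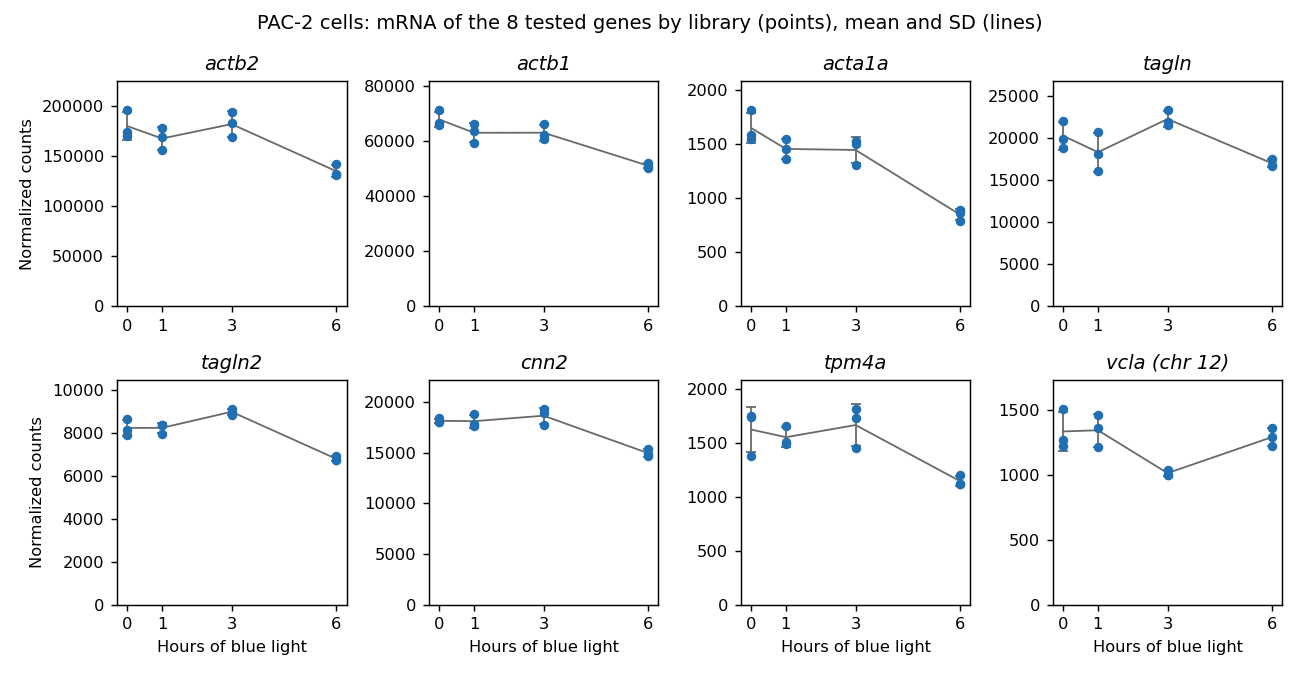
Normalized counts of the 8 tested genes in PAC-2 cells against hours of blue light, with points for the 3 libraries of each time and lines with bars for the mean and SD. At 6 h, 7 genes lie below all their 0 h points, while vcla is lowest at 3 h, where its libraries have 998 to 1039 normalized counts.

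Among the actins, actb2 had 170503, 173763 and 195603 normalized counts in the 0 h libraries and 131642, 131506 and 141695 at 6 h. All 6 h libraries of actb2 lay below all 0 h libraries, while those of 1 h (155756 to 177905) and 3 h (168727 to 193955) overlapped the control. Its log2 difference at 6 h was -0.42 ± 0.07 (SE), with a 95% interval of -0.57 to -0.26. actb1, at chromosome 1, 8649099 to 8653385, had 65764, 66630 and 71113 normalized counts at 0 h and 50808, 50262 and 52037 at 6 h. Its 3 libraries at 6 h were close to each other and far below the control, with a log2 difference of -0.41 ± 0.06 (95% interval -0.53 to -0.29). On the TMM scale, a reference gene with these changes would raise any gene divided by it by 1.33-fold at 6 h. The change was smaller in TPM, from 6063 at 0 h to 4868 at 6 h for actb2 and from 1717 to 1382 for actb1. Which of the β-actin genes the RT-qPCR primers amplify was not analysed here.

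The β-actin genes kept nearly the same ratio. actb2 had 3.53 ± 0.12 times the TPM of actb1 at 0 h, 3.54 ± 0.05 at 1 h, 3.84 ± 0.12 at 3 h and 3.52 ± 0.09 at 6 h (SD, n = 3). The ratio of each 3 h library (3.71 to 3.93) was above those of the other times, whose highest value was 3.66. On the TPM scale actb1 was at 1407 ± 69.0 at 3 h and 1382 ± 14.0 at 6 h. Scaled by total counts instead of TMM factors, actb1 differed by -0.21 on the log2 scale at 3 h instead of -0.11, and under this scaling the median of all genes at 3 h was -0.11.

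acta1a had the lowest 6 h level relative to the dark of all 8 genes. This gene, at chromosome 1, 53945934 to 53953532, had 1543, 1585 and 1808 normalized counts at 0 h and 786, 863 and 887 at 6 h. The groups did not overlap, and the log2 difference was -0.96 ± 0.08 (95% interval -1.12 to -0.80). At 3 h its libraries (1304 to 1526) also all lay below the control, with a log2 difference of -0.19 ± 0.08, and at 1 h (1358 to 1544) they touched it. Its level followed that of actb1 over the 12 libraries with a Pearson r of 0.98, a description of libraries that share their times and depth.

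The transgelins had their lowest mean at 6 h in normalized counts and in TPM, while their place at 3 h turned with the scale. In normalized counts both were highest at 3 h, but in TPM tagln was highest at 0 h (1798, against 1744 at 3 h) and tagln2 at 1 h (449, against 427 at 3 h). tagln, at chromosome 15, 543744 to 551181, had 18834, 19838 and 22031 normalized counts at 0 h, 21910, 23247 and 21513 at 3 h and 16623, 16734 and 17532 at 6 h. Its 3 h libraries overlapped the control and its 6 h libraries did not. The log2 difference of tagln was 0.14 ± 0.08 at 3 h (0.03 with scaling by total counts) and -0.25 ± 0.08 at 6 h (95% interval -0.42 to -0.09). When 0 h replicate 3 was left out, or replicate 1 or 2 of 6 h, tagln was no longer called at 6 h, and its log2 difference without 0 h replicate 3 was -0.19.

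tagln2, at chromosome 5, 37087583 to 37095460, had less spread. It had 7939, 8166 and 8649 normalized counts at 0 h, 9012, 9132 and 8868 at 3 h and 6738, 6746 and 6956 at 6 h. All 3 h libraries were above and all 6 h libraries below the control, with log2 differences of 0.13 ± 0.04 and -0.28 ± 0.04. The 3 h difference was 0.02 with scaling by total counts. It was called neither there nor with RLE or upper-quartile factors, and the call was lost in 10 of the 12 fits that left out 1 library. tagln was also higher at 3 h than at 1 h, with a log2 difference of 0.28 ± 0.08, after 16072, 18076 and 20698 normalized counts at 1 h.

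cnn2, at chromosome 2, 24548249 to 24554432, was lower in every 6 h library. It had 18046, 18419 and 18031 normalized counts at 0 h and 14887, 14661 and 15374 at 6 h, groups that did not overlap. The log2 difference of cnn2 was 0.00 ± 0.05 at 1 h, 0.04 ± 0.05 at 3 h and -0.28 ± 0.05 at 6 h (95% interval -0.38 to -0.18). The 3 h value was -0.06 with scaling by total counts, and in TPM cnn2 went from 543 at 0 h to 491 at 3 h.

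tpm4a, at chromosome 22, 15577827 to 15602760, had 1380, 1745 and 1742 normalized counts at 0 h and 1198, 1115 and 1122 at 6 h. Its 0 h libraries were spread widely, and all 6 h libraries were still below the lowest of them. The log2 difference at 6 h was -0.50 ± 0.10 (95% interval -0.71 to -0.29), while at 3 h it was 0.04 ± 0.10. The row named "TPM1 (1 of many)", outside the set, had 226, 262 and 307 normalized counts at 0 h and 238, 208 and 220 at 6 h, which overlap, with a log2 difference of -0.25 ± 0.11.

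vcla, the vinculin gene on chromosome 12, ran against the others. It had 1505, 1269 and 1225 normalized counts at 0 h, 1358, 1459 and 1210 at 1 h, 998, 1001 and 1039 at 3 h, and 1361, 1288 and 1221 at 6 h. All 3 h libraries lay below the control, and the 6 h libraries overlapped it. The log2 difference was -0.40 ± 0.08 at 3 h, -0.05 ± 0.08 at 6 h and 0.35 ± 0.08 from 3 h to 6 h. The highest control library was replicate 1, and without it the 3 h difference was -0.30.

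**Figure D3:**
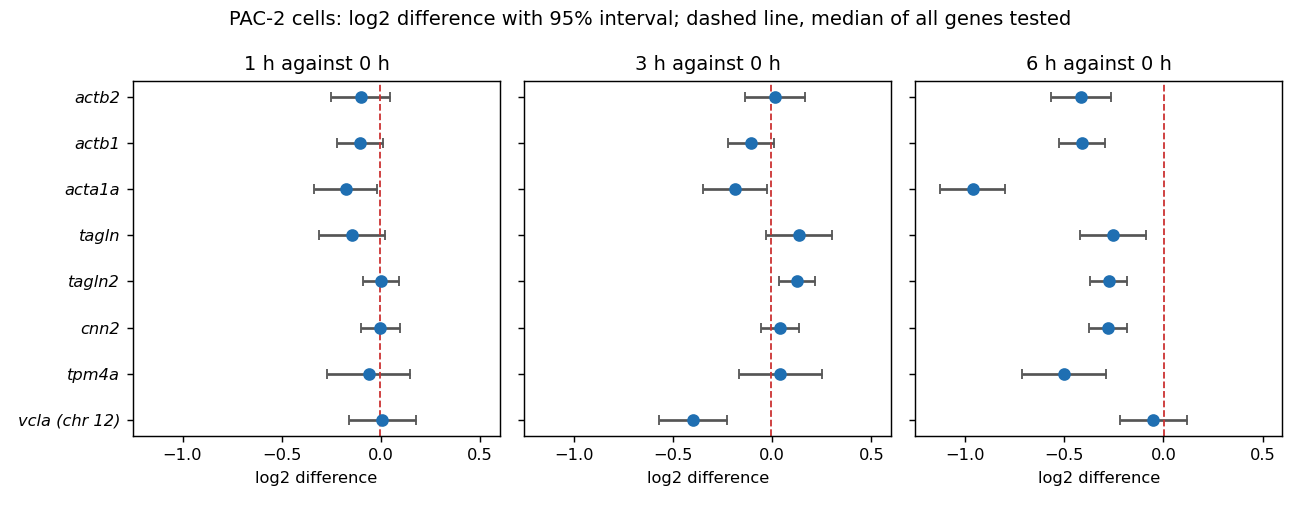
Log2 difference from 0 h of the 8 tested genes in PAC-2 cells at 1, 3 and 6 h, with 95% intervals from the edgeR fit of 12 libraries and a dashed line at the median of all 18017 genes. At 6 h, 7 intervals lie below the line, with acta1a lowest at -0.96, and vcla is low at 3 h only.

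How the difference divided between the times depended on the scale. In normalized counts, 7 of the 8 genes were lower at 6 h than at 3 h, with a median log2 difference of -0.40 over the 8, and acta1a had the largest at -0.77 ± 0.08, ahead of tpm4a at -0.54 ± 0.10 and actb2 at -0.43 ± 0.07. Over the 12 libraries, the 21 pairs among the 7 genes other than vcla had Pearson r between 0.65 and 0.98 for log2 levels, and the 7 pairs with vcla had r between -0.73 and -0.15. These values describe libraries with common times and are no test. In TPM much of the difference was already present at 3 h for some genes: cnn2 had 543, 491 and 478 TPM at 0, 3 and 6 h, actb1 1717, 1407 and 1382, actb2 6063, 5411 and 4868, and acta1a 60.8, 47.0 and 33.4. Less of it was present at 3 h for tagln (1798, 1744 and 1615), tagln2 (444, 427 and 392) and tpm4a (34.2, 31.0 and 25.9).

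The genes most like actb1 over the 12 libraries, among 18016 others, were tubb4b and tuba1c, which encode tubulins of the microtubule cytoskeleton, with r of 0.99 each. They were followed by pa2g4a, wdr12 and snu13a, each with r of 0.98. The genes most like tagln were aamp (r = 0.98), eif3ha, a subunit of translation initiation factor 3, CCT2, a subunit of the chaperonin that folds actin and tubulin, tmbim1b and gemin6, each of these 4 with r of 0.97. These are the highest values picked from 18016 genes over libraries that share their times and scaling. They are a description and no test, and whether the genes are regulated together was not tested.

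Genes with related roles were read from lists of 248 names in all, of which 156 genes were tested. The lists were drawn up with earlier results of these data known, though without the values of their own genes. Their counts and adjusted p-values are therefore a description. At 3 h 20 of the 156 rose and 32 fell, and at 6 h 17 rose and 39 fell, at an adjusted p under 0.05 in edgeR. Of the listed genes 12.8% rose and 20.5% fell at 3 h, beside 11.3% and 10.1% of all genes, and 10.9% rose and 25% fell at 6 h, beside 14.1% and 14.9%. The rises were near or below the share of all genes. The median log2 difference at 6 h was -0.08, beside 0.002. At 1 h 0 rose and 1 fell. No gene of these lists passed the thresholds of the study at any time. With scaling by total counts, 11 rose and 59 fell at 3 h, where 7.05% of all genes rose and 19.8% fell under that scaling. Without 0 h replicate 1, 13 rose and 17 fell at 3 h. For fits that left out 1 library, here and below, the share of all genes called was not computed. Their counts therefore cannot tell a loss particular to a list from a loss over all genes.

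Of 54 genes of actin assembly and turnover tested, 21 fell (38.9%, beside 14.9% of all genes), 5 rose (9.26%, beside 14.1%) and 28 were not called at 6 h, with a median log2 difference of -0.17, and at 3 h 8 fell and 8 rose (14.8% each, beside 10.1% and 11.3%). Without 0 h replicate 1, 4 fell and 3 rose at 3 h. The 21, named here after their values were seen, include subunits of the Arp2/3 complex, which starts branched filaments (actr2a, actr3, arpc1a, arpc2, arpc3, arpc4, arpc5a and arpc5la), the filament-severing cofilins cfl1 and cfl2, the profilins pfn2 and pfn2l, which feed actin monomers to growing ends, and the monomer-binding tmsb2. The log2 differences of the 21 at 6 h lay between -0.38 and -0.15. The call of arpc3 was lost in 5 of the 12 fits that left out 1 library, that of arpc1a in 2 and that of arpc2 in 1, without 0 h replicate 3. The genes named by rule were ssh1a, diaph2 and arpc5lb, called higher at 6 h, and the formin diaph3. diaph2, a formin that lengthens filaments, went from 636 ± 90.4 to 924 ± 41.9 normalized counts at 6 h (log2 difference 0.53 ± 0.11, edgeR adjusted p = 0.0020). At 3 h diaph2 was called lower instead, with 468 ± 38.7 (log2 difference -0.45). That call was lost without 0 h replicate 1 or 3 h replicate 1. arpc5lb went from 955 ± 61.5 to 1386 ± 35.3 at 3 h (0.54 ± 0.07, edgeR adjusted p = 5.64e-05) and was at 1185 ± 27.6 at 6 h. diaph3 fell from 992 ± 48.4 to 692 ± 65.0 at 3 h (-0.52 ± 0.08, edgeR adjusted p = 0.00016). ssh1a, a slingshot phosphatase that activates cofilin, was a low gene with 29.5 ± 6.41 normalized counts at 0 h and 50.6 ± 9.20 at 6 h (0.79 ± 0.25, edgeR adjusted p = 0.025), a call lost without replicate 1 or 3 of 0 h and without replicate 1 of 6 h.

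Of 44 focal adhesion genes tested, 16 fell (36.4%, beside 10.1% of all genes), 1 rose (2.27%, beside 11.3%) and 27 were not called at 3 h, and at 6 h 5 fell and 5 rose (11.4% each, beside 14.9% and 14.1%), with median log2 differences of -0.13 and 0.03. Fewer than 16 were called with some libraries left out: 6 without 0 h replicate 1, 10 without 3 h replicate 1 and 7 without 3 h replicate 2. The share of all genes called in those fits was not computed, so whether this is particular to the list cannot be told. With scaling by total counts 26 fell at 3 h, where 19.8% of all genes fell. At 6 h the 5 that rose became 11 without 0 h replicate 1, 3 without replicate 1 or 2 of 6 h and 2 without 0 h replicate 3 or 6 h replicate 3, and the 5 that fell became 3 without 6 h replicate 2. The list holds integrins, talins, tensins and other partners of vinculin. lpp, a zyxin relative, fell from 459 ± 74.5 to 284 ± 46.8 normalized counts at 3 h (-0.70 ± 0.12, edgeR adjusted p = 0.0011) and had 545 ± 22.3 at 6 h. In the assembly of the same PAC-2 libraries the name LPP did not show this fall, with -0.08 ± 0.07 at 3 h, and was not called. tns1b, a tensin, fell from 1560 ± 284 to 1064 ± 128 at 3 h (-0.56 ± 0.17, edgeR adjusted p = 0.047, lost in 8 of the 12 fits that left out 1 library), and at 6 h was at 2161 ± 58.3 (0.46 ± 0.17, edgeR adjusted p = 0.066). pxnb, a paxillin, was at 255 ± 77.7, 145 ± 24.0 and 379 ± 25.3 normalized counts at 0, 3 and 6 h, and passed the test at 3 h (-0.82 ± 0.23, edgeR adjusted p = 0.030, lost in 5 of these 12 fits). tns2a and itgb1b.1 also fell at 3 h, from 44.4 ± 19.0 to 18.2 ± 4.16 and from 16.0 ± 2.45 to 7.21 ± 2.48 normalized counts, and the calls were lost in 1 (tns2a, without 0 h replicate 1) and 10 of the 12 fits. itgb3b, an integrin β3, rose at 6 h from 1545 ± 236 to 2241 ± 132 (0.53 ± 0.12, edgeR adjusted p = 0.0061).

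SRF, its coactivators and their known targets went both ways. Of 28 tested, 8 rose (28.6%, beside 11.3% of all genes) and 5 fell (17.9%, beside 10.1%) at 3 h, and 4 rose (14.3%, beside 14.1%) and 6 fell (21.4%, beside 14.9%) at 6 h, with a median log2 difference of 0.02 at 6 h. The 5 that fell at 3 h became 3 without 3 h replicate 1. ctgfb, which encodes a matricellular growth factor, rose from 1699 ± 164 normalized counts to 2461 ± 67.1 at 3 h and 3148 ± 150 at 6 h (0.89 ± 0.07 at 6 h, edgeR adjusted p = 3.50e-08). srfa, which encodes SRF itself, fell from 166 ± 15.2 to 91.0 ± 8.82 at 3 h (-0.87 ± 0.13, edgeR adjusted p = 0.00016) and was at 177 ± 1.84 at 6 h. mkl2a, an MRTF coactivator, was at 447 ± 127, 247 ± 19.8 and 581 ± 13.6 at 0, 3 and 6 h and passed the test at 3 h (-0.87 ± 0.21, edgeR adjusted p = 0.016), though not without 3 h replicate 1 or 3 h replicate 2. Of the immediate early genes, fosab rose from 123 ± 6.38 to 214 ± 20.4 and ier2b from 165 ± 21.7 to 300 ± 19.0 normalized counts at 3 h, while fosb fell from 337 ± 41.6 to 226 ± 37.8.

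Close relatives of the set were measured too. Of 5 calponin, transgelin and tropomyosin relatives tested, 2 fell and 0 rose at 6 h (40% and 0%, beside 14.9% and 14.1% of all genes), and 1 rose and 1 fell at 3 h (20% each, beside 11.3% and 10.1%). The other gene that fell at 6 h, tpm4b, was not called without replicate 1 or 2 of 6 h. tpm3, a tropomyosin of non-muscle and slow muscle cells, fell from 8614 ± 910 to 6542 ± 168 normalized counts at 6 h (-0.40 ± 0.06, edgeR adjusted p = 0.00013). cnn3a, a calponin, rose at 3 h from 4770 ± 123 to 5484 ± 288 (0.20 ± 0.05, edgeR adjusted p = 0.0057) and was at 5102 ± 36.1 at 6 h. Of 5 actin family relatives tested, 1 rose at 6 h (20%, beside 14.1%) and 0 fell: actr6, an actin-related protein of nuclear complexes, went from 943 ± 73.6 to 1404 ± 44.7 normalized counts (0.58 ± 0.07, edgeR adjusted p = 6.82e-06). Of the 20 smooth muscle contractile genes tested, 2 rose and 5 fell at 6 h (10% and 25%, beside 14.1% and 14.9% of all genes), and 1 rose and 2 fell at 3 h (5% and 10%, beside 11.3% and 10.1%). The 5 became 3 without replicate 3 of 0 h or replicate 2 or 3 of 6 h, the 2 that rose at 6 h became 1 without 0 h replicate 2 or replicate 1 or 2 of 6 h, and the 2 that fell at 3 h became 1 without replicate 2 or 3 of 0 h or replicate 1 or 2 of 3 h. The riser named by rule, myh9a, went from 100.1 ± 3.18 to 160 ± 5.79 normalized counts at 6 h (0.68 ± 0.13, edgeR adjusted p = 0.00063), and the 5 that fell, named after their values were seen, were the myosin light chain genes myl12.1, myl12.2 and myl6, ppp1r14bb, of a family of myosin phosphatase inhibitors, and lmod1b, a leiomodin that starts actin filaments. The call of lmod1b was lost in 5 of the 12 fits that left out 1 library and that of myl12.2 in 3.

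**Figure D4:**
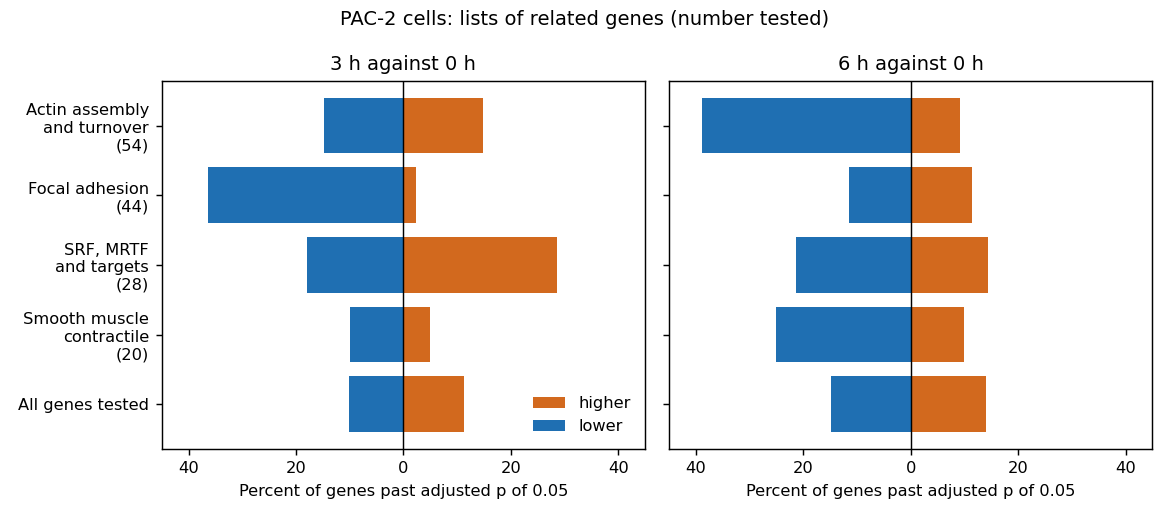
Percent of tested genes that rose (right) or fell (left) at an adjusted p under 0.05 in PAC-2 cells, for 4 lists with their number of tested genes and for all genes tested, at 3 h and 6 h. At 3 h the longest bar is the 36.4% of focal adhesion genes that fell, and at 6 h the 38.9% of actin assembly and turnover genes that fell.

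The tables assembled without a genome let both cell lines be compared by protein name. In PAC-2 cells the 6 names stand on 9 Trinity genes, that is, groups of assembled transcripts. In EPA cells 5 names stand on 6 Trinity genes, with no row named TAGL2, and 1 more Trinity gene has TPM1 as a later name. At 1 h 0 names were called in PAC-2 cells, with 0.0788% of features higher and 0.00463% lower. The PAC-2 values come from the same libraries as above and are no independent replicate of them. Called lower in PAC-2 cells at 6 h were 3 of 6 names, where 11.4% of all 21578 features tested were lower and 10.3% higher, and at 3 h VINC alone, where 5.74% were lower and 8.7% higher. VINC was not called without replicate 1 of 0 h, nor without replicate 1 or 2 of 3 h.

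ACTB in PAC-2 cells had 233071, 236153 and 262267 normalized counts at 0 h and 176921, 176711 and 188745 at 6 h, groups that did not overlap (log2 difference -0.43 ± 0.06). TAGL2 and CNN2 were also below the control in every 6 h library, with log2 differences of -0.25 ± 0.04 and -0.19 ± 0.05. TAGL lay below it as well, with -0.23 ± 0.08, but was not called. TPM1 differed by -0.10 ± 0.05 and its libraries overlapped. VINC had 535, 436 and 414 normalized counts at 0 h, 330, 329 and 339 at 3 h and 477, 452 and 439 at 6 h, a dip at 3 h of -0.48 ± 0.11.

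In EPA cells no name was called lower at 6 h. Of the 5 names, 0 were called at 1, 3 or 6 h in edgeR. There 0.259% of all 20819 features were called higher and 0.0192% lower at 1 h, 1.05% and 0.163% at 3 h, and 4.19% and 1.87% at 6 h. DESeq2 called 2 of the 5 higher at 6 h, where it called 6.94% of all features higher and 4.86% lower. TAGL had 10109, 10072 and 9894 normalized counts at 0 h, 10446, 10938 and 10214 at 3 h and 11233, 10894 and 10552 at 6 h. Every 3 h and 6 h library of TAGL was above the control, by 0.07 ± 0.03 and 0.12 ± 0.03 on the log2 scale. CNN2 had 3706, 3553 and 3559 normalized counts at 0 h and 3724, 3851 and 3970 at 6 h, which did not overlap, with a log2 difference of 0.09 ± 0.03. TPM1 (0.06 ± 0.04) and VINC (0.01 ± 0.04) overlapped the control at 6 h.

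The name ACTB does not stand for the same transcripts in both tables. In EPA cells it is a thin row with 433, 208 and 181 normalized counts at 0 h and 82.5, 189.6 and 88.4 at 6 h, far below the actin of PAC-2 cells. Its log2 difference in EPA cells was -1.55 ± 0.50 at 1 h, -0.79 ± 0.49 at 3 h and -1.19 ± 0.49 at 6 h. Most EPA actin stands under the best match ACTB1 of zebrafish, on a Trinity gene with 76761 ± 2386 normalized counts at 0 h and 79940 ± 2204 at 6 h and another with 29089 ± 1395 and 27523 ± 853. A Trinity gene named ACTG had 14634 ± 513 and 14540 ± 648. So the names ACTB, ACTB1, ACTG, ACT1 and ACT2 were summed in each table, an alternative chosen after seeing the data, which joins 5 Trinity genes in each line. The names are not the same in both: PAC-2 cells have 3 of them (ACTB, ACT1 and ACT2) and EPA cells 4 (ACTB, ACTB1, ACTG and ACT2). The larger ACT1 row of PAC-2 cells, with ACT1_ABSGL as best match, had 11247 ± 36.1 normalized counts at 0 h.

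The summed actin of EPA cells had 119912, 117705 and 125580 normalized counts at 0 h and 122028, 120868 and 124431 at 6 h. These groups overlap, and the log2 difference was 0.02 ± 0.03 at 6 h and -0.02 ± 0.03 at 3 h. In PAC-2 cells the same sum went from 245410, 248359 and 274778 to 185991, 185665 and 197711 normalized counts, with all 6 h libraries below the control and a log2 difference of -0.43 ± 0.06. At 1 h the EPA sum (111795 to 116543) was below its control in every library, by 0.08 ± 0.03 on the log2 scale.

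The difference between the responses of the lines was then computed in 1 joined fit over 6236 shared names, as the change in EPA cells minus the change in PAC-2 cells. The joined fit had its own TMM factors, computed over the shared names. Its values therefore need not equal the changes given for each line alone, subtracted from each other. For the name ACTB itself it was -1.51 ± 0.43 at 1 h, -0.87 ± 0.39 at 3 h and -0.82 ± 0.41 at 6 h, with the thin EPA row as its base. For the summed actin, chosen after seeing the data, it had the opposite sign at 6 h, 0.38 ± 0.07, and was -0.02 ± 0.07 at 3 h. For TAGL it was 0.28 ± 0.08 (95% interval 0.12 to 0.44) and for CNN2 0.21 ± 0.06 (0.09 to 0.34) at 6 h, with every PAC-2 library below and every EPA library above its own control. The share of all shared names with such a separation was not computed, so nothing is read from this pattern. For TPM1 the difference between the lines at 6 h was 0.09 ± 0.06 (-0.03 to 0.22). For VINC it was 0.56 ± 0.11 (0.34 to 0.78) at 3 h and -0.03 ± 0.10 at 6 h. Called higher were 1 name at 3 h (VINC) and 2 at 6 h (TAGL and CNN2), and 0 names were called at 1 h. Of all shared names 0.609% were called higher and 0.609% lower at 1 h, 13.8% and 13.7% at 3 h, and 21.4% and 25.5% at 6 h, and nothing is read from these counts.

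**Figure D5:**
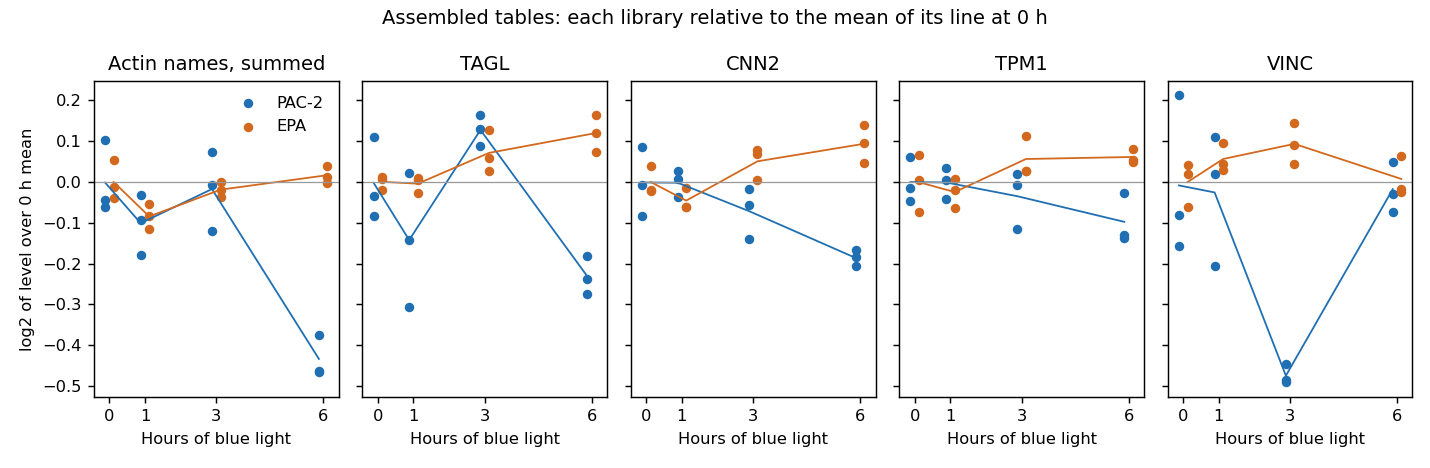
Log2 of the level in each library over the 0 h mean of its own line, for the summed actin names and for TAGL, CNN2, TPM1 and VINC in the assembled tables, with points for libraries and lines through the means of the log2 values (n = 3 per line and time). At 6 h the summed actin lies near -0.43 in PAC-2 and near 0.02 in EPA cells, and VINC dips in PAC-2 cells at 3 h.

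Of 41 other actin cytoskeleton names found in both lines, 8 had a higher and 6 a lower response in EPA than in PAC-2 cells at 3 h, and 3 had a higher and 15 a lower one at 6 h. The shares were 19.5% and 14.6% at 3 h, beside 13.8% and 13.7% of all shared names, and 7.32% and 36.6% at 6 h, beside 21.4% and 25.5%. Without 0 h replicate 3 of PAC-2 cells 7 instead of 15 had a lower response, and without its 0 h replicate 2 there were 9. Without 0 h replicate 1 of PAC-2 cells 5 instead of 8 had a higher response at 3 h. The share of all shared names in these fits was not computed. With scaling by total counts 20 were higher and 1 lower at 3 h, where 39.1% of all shared names were higher and 5.13% lower. TPM4, the non-muscle tropomyosin, fell at 6 h in PAC-2 cells by 0.41 ± 0.05 and differed by 0.01 ± 0.03 in EPA cells. Its difference between the lines in the joined fit, with the scaling of that fit, was 0.35 ± 0.06 (edgeR adjusted p = 3.06e-05). GELS, the filament-severing protein gelsolin, rose in PAC-2 cells at 6 h by 0.34 ± 0.03 and differed by 0.06 ± 0.02 in EPA cells. In the joined fit its difference was -0.34 ± 0.04 (edgeR adjusted p = 1.93e-06). CCN2, the product of the CTGF gene, differed at 1 h already, by -0.49 ± 0.08 in the joined fit (edgeR adjusted p = 0.00068). Its changes at 1 h were 0.16 ± 0.05 in PAC-2 and -0.31 ± 0.05 in EPA cells, and neither was called within its line. In the PAC-2 assembly CCN2 changed by 0.15 ± 0.05 at 3 h, which was not called, and by 0.31 ± 0.05 at 6 h. For ctgfb, in the same libraries mapped to the genome, the changes were larger, 0.53 and 0.89.

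TENS1, a tensin, and ITB1, integrin β1, differed at both later times in opposite directions. At 3 h the difference was 0.52 ± 0.14 for TENS1 and 0.41 ± 0.10 for ITB1 (edgeR adjusted p = 0.012 and 0.0052). At 6 h it was -0.47 ± 0.15 and -0.33 ± 0.10 (edgeR adjusted p = 0.013 and 0.011), and neither 6 h call held without 0 h replicate 3 of PAC-2 cells. In PAC-2 cells both fell at 3 h, by 0.43 ± 0.10 and 0.41 ± 0.10, and in EPA cells the differences were 0.11 ± 0.11 and 0.01 ± 0.03. At 6 h TENS1 and ITB1 changed by 0.13 ± 0.10 and 0.18 ± 0.10 in PAC-2 cells, and by -0.28 ± 0.11 and -0.09 ± 0.03 in EPA cells. None of these 6 h changes was called within its line. LPP, the zyxin relative, differed at 6 h by -0.33 ± 0.13 (edgeR adjusted p = 0.034), a call lost in 11 of the 24 fits that left out 1 library. At 6 h LPP changed by 0.24 ± 0.07 in PAC-2 and by -0.03 ± 0.10 in EPA cells. At 3 h it changed by -0.08 ± 0.07 in PAC-2 cells, where lpp had fallen in the counts mapped to the genome.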

How the data were processed

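RNA of PAC-2 and EPA cells was sequenced as poly-A mRNA with paired-end Illumina reads. The authors' provider mapped the PAC-2 reads to GRCz11, and the deposited values are raw read counts per gene. No aligner, counter, annotation release or strand setting is named in the paper, labels or headers. The FPKM values the authors deposited equal counts over gene length with a factor per library, and were used to check the table only. For both lines, the authors assembled reads with Trinity, removed transcripts under a TPM of 5, named them by Blast-X against UniProt, and deposited expected counts from salmon, which were rounded here after the Trinity genes of a name (the entry before the species, first name of a row) were summed. The genome table has 3985 rows without an annotated gene, which were kept.

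All 12 libraries of a table entered 1 fit in edgeR 4.0.16 (R 4.3.3) with TMM factors, filterByExpr by group, robust glmQLFit and glmQLFTest, and p-values were adjusted by the Benjamini-Hochberg method over 18017, 21578 and 20819 features. Both lines entered 1 fit of 6236 shared names with line, time and their interaction. Intervals are at 95%. As separate cultures are not stated, p-values reflect library-to-library spread only, possibly technical. The fit was also run on simulated counts, whose outcome is not given here, and nothing about these data is concluded from that run. No 2 libraries of a group agreed within sampling noise.

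The members and gene lists were chosen with earlier results of these data known, the lists without the values of their own genes having been seen. Named were all members, from each list at most 6 genes called at any time with an absolute log2 difference of at least 0.5 (else the 2 most abundant), the 5 genes most like actb1 and tagln, and at most 6 proteins whose response differed between lines. Tried as alternatives were DESeq2 1.42.0, other scalings, no filter, a replicate block, each library left out, each time fitted with 0 h alone, other summing of names and the study's thresholds.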

Additional observations from a re-analysis of the deposited data

Results flagged for a closer look

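The changes in EPA and PAC-2 cells differed for several names, all given on the log2 scale as EPA minus PAC-2. The difference was 0.28 for TAGL at 6 h, 0.21 for CNN2 at 6 h and 0.56 for VINC at 3 h. In each case every library of PAC-2 cells lay below and every library of EPA cells above its own dark control. For CNN2 in EPA cells the margin was small, with 3724 normalized counts in the lowest 6 h library and 3706 in the highest 0 h library. VINC in EPA cells was nearly tied, with 1419 in the lowest 3 h library and 1417 in the highest 0 h library. Its EPA difference of 0.09 ± 0.04 was not called. The share of all shared names with such a separation was not computed, so nothing is read from it. These differences carry no test because the names were chosen with earlier results known. Whether each name stands for the same gene in both lines was not tested. The list of other actin cytoskeleton names was also drawn up with earlier results known, and its calls are a description. In this list, an adjusted p under 0.05 in the interaction test of edgeR was reached by CCN2 at 1 h (-0.49), 3 h (-0.46) and 6 h (-0.45), GELS at 3 h (-0.13) and 6 h (-0.34), ITB1 at 3 h (0.41) and 6 h (-0.33), TENS1 at 3 h (0.52) and 6 h (-0.47), LPP at 6 h (-0.33) and TPM4 at 6 h (0.35). The call of GELS at 3 h was lost in 8 of the 24 fits that left out 1 library.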

How the results depend on the processing

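The lower level of 7 genes at 6 h in PAC-2 cells kept its direction in all 7 under every alternative run. With 1 library left out, 6 to 7 were called. With the thresholds of the study, 0 members were called at 3 h or 6 h, and 0 genes of the lists at 1 h, 3 h or 6 h. The 1 member called higher at 3 h became 0 with RLE factors, total counts, upper-quartile factors, no filter, the replicate block and each time fitted with 0 h alone, and 0 to 1 with 1 library left out. With total counts 3 members were lower at 3 h, 11 list genes higher and 59 lower, and between lines 20 names were higher and 1 lower at 3 h, and GELS at 3 h reversed to 0.048. Under total counts the median of all genes at 3 h was -0.11 in the genome table, -0.13 in the assembled PAC-2 table and 0.18 between lines. DESeq2 called 1 list gene higher and 2 lower at 1 h, where it called 0.300% of all genes higher and 0.0555% lower. It called 2 EPA names higher at 6 h, where 6.94% of all features were higher. Between lines DESeq2 called 5 names higher at 6 h, and so did edgeR with RLE factors. Of all shared names DESeq2 called 23.0% higher and 20.3% lower, and RLE factors 24.8% and 22.0%. With TMM factors these shares were 21.4% and 25.5%, so the balance of higher and lower at 6 h depended on the scaling. Fitted with 0 h alone, 0 list genes were lower at 1 h and 0 PAC-2 names lower at 3 h.

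With 1 library left out, the list genes called ranged from 12 to 24 higher and 17 to 34 lower at 3 h, from 12 to 24 higher and 28 to 44 lower at 6 h, and from 1 to 2 lower at 1 h. The shares of all features called in the fits with 1 library left out were not computed, for this and the other ranges. The fewest lower at 3 h came without 0 h replicate 1 (17), 3 h replicate 2 (18) and 3 h replicate 1 (20), and the fewest higher at 3 h without 0 h replicate 2 (12), 0 h replicate 1 (13) and 3 h replicate 1 (13). PAC-2 names lower ranged from 0 to 1 at 3 h and from 2 to 4 at 6 h, EPA names higher at 6 h from 0 to 1, and names between lines from 5 to 12 higher and 4 to 8 lower at 3 h, and from 2 to 5 higher and 7 to 16 lower at 6 h.

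Libraries of the same number deviated together little (correlations from -0.09 to 0.16 over 18 pairs in the genome table, 1 of them over 0.1). The highest were those of 0 h with 1 h, 0.16 for replicate 3 and 0.09 for replicate 1. Such correlations over all genes cannot decide whether the numbers pair the libraries. The replicate block left 7 members lower at 6 h, 37 instead of 39 list genes lower and 4 instead of 3 PAC-2 names lower. No library is short of reads for the abundant genes, while acta2 and the vcla row of chromosome 13 have too few counts to be tested.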
